A study of Mus musculus with 17 samples.

Results

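Gene expression was compared between the livers of 6 male mice given a carcinogen and a steatogenic diet and those of 5 untreated males of the same age. All mice were C57BL/6J, and RNA came from non-tumorous liver taken at 32 weeks, with 1 library per mouse. The 5 regular diet mice received no treatment. The 6 vehicle mice were fed CDA-HFD, a high-fat diet of defined amino acids that lacks choline. They also had a single dose of 100 mg/kg of diethylnitrosamine (DEN), a liver carcinogen, in week 1, and intraperitoneal PBS, the vehicle of an antibody study, 1 time per week over 16 weeks. Libraries were assigned to the groups by their titles, and the comparison holds 11 of the 17 libraries of the series. The other 6 libraries came from mice with the same diet and DEN that received 500 µg of an antibody against claudin-1 in place of PBS. These antibody libraries entered the gene filter, the estimate of the residual spread and the alternative scalings, but not the group means compared. Genes were kept where the value was at least 10 in 5 or more libraries, which left 18624 of the 52545 genes in the table. Diet, DEN and injections came together in the same mice, so their shares in any difference cannot be told apart. Nothing in the labels says how the mice were caged or bred. Each p-value rests on the spread between mice within the groups of this series alone.

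As background, hepatocytes activate DEN to a DNA-alkylating agent, and a lack of choline limits the export of fat in very-low-density lipoprotein, so that fat is kept in the cell. Livers on such a regimen are known for steatosis, inflammation, scarring and, later, tumours. Hepatocytes supply most of the RNA in a piece of liver, and they divide their work along the lobule. Cells near the portal vein make glucose and urea, and cells near the central vein make glutamine and oxidise drugs.

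Values are normalized counts. Each fold change is the vehicle mean minus the regular diet mean of log2(value + 1), with its SE, and it understates changes of genes near 0. Adjusted p-values are from limma-trend with Benjamini-Hochberg adjustment over all 18624 genes, two-sided, with a threshold of 0.05, and "rose" or "fell" is used only of genes that passed. The values of regular diet are listed in the order of replicates 1 to 5. Estimated depth was 30.4 to 59.5 M fragments per library. Deposited totals were 48.2 to 74.6 M in regular diet and 29.7 to 42.1 M in vehicle and did not overlap. Regular diet replicate 1 stood apart from its group. Among 4 equal groups of 3726 protein-coding genes by exon length, its median log2 difference from replicates 2 to 5 ran from 0.98 for the shortest genes to -0.72 for the longest, whereas replicates 2 to 5 stayed between -0.03 and 0.04. The median SD of a gene over regular diet was 0.50 on the log2 scale with replicate 1 and 0.19 without it, and 0.43 over vehicle. Of 13 tested hepatocyte markers, 10 fell, Trf with a possible failed estimate among them, and Serpina1a, of a family of near-identical copies, rose, and their summed level was 3.36 to 7.04 M in regular diet and 0.937 to 2.49 M in vehicle. Albumin (Alb) had a value of exactly 0 in every library, which may be a failed estimate. In bulk tissue, fewer cells of a type and less RNA per cell cannot be told apart. Library codes ran from 31 to 35 in regular diet. The codes of vehicle replicates 1 to 3 lay below these and those of replicates 4 to 6 above, and what the codes stand for is not in the labels. Strand is not stated, so reads of genes whose exons overlap cannot be told apart. Overlaps of at least 100 bases were looked for. Among the genes named below, exons overlap those of another named coding gene to that extent for Mmp12 (Mmp1b), Srebf1 (Rai1), Nr1i3 (Tomm40l), Sds (Plbd2), Glul (Teddm2), Pklr (Hcn3), G6pdx (Ikbkg), Hacl1 (Btd), Chpt1 (Sycp3), Smpd3 (Prmt7), Mttp (Trmt10a), Psmb9 (Tap1), Ncf1 (Gtf2ird2), Tuba4a (Stk16), Mst1 (Rnf123) and Dbp (Sphk2).

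About as many genes passed the test as did not. In vehicle livers 5547 genes (29.8% of those tested) were higher and 3853 (20.7%) lower, 9400 (50.5%) in all. Changes of at least 2-fold numbered 4354 upward (23.4%) and 1927 downward (10.3%), and changes of at least 8-fold 1190 and 133. The filter counted all 17 libraries. A gene near 0 in regular diet could pass on vehicle and antibody libraries alone. One near 0 in both of those groups had to reach 10 in all 5 regular diet libraries. Of the tested genes, 49 were at 0 in every regular diet library and 0 were at 0 in every vehicle library. Upward and downward counts were thus not taken on equal terms, and the same holds within gene lists, where untested members were left out. In 3557 genes (19.1%) every vehicle value lay above every regular diet value, and in 1960 (10.5%) every one lay below. Leaving out regular diet replicate 1 gave 5951 higher and 4729 lower genes. With only the vehicle libraries of lower code 4278 genes were higher and 2671 lower, and with only those of higher code 5524 and 3660. The balance of directions depended on the scaling between libraries. With equal library totals, 9369 genes were higher and 1264 lower, and the median log2 fold change of all genes moved from 0.04 to 0.65. With quantile normalization, 4447 were higher and 5223 lower, with an all-gene median of -0.13. Medians of gene lists below are read against these all-gene medians. Counts of list members and markers called are read against the shares of 29.8% higher and 20.7% lower.

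**Figure D1:**
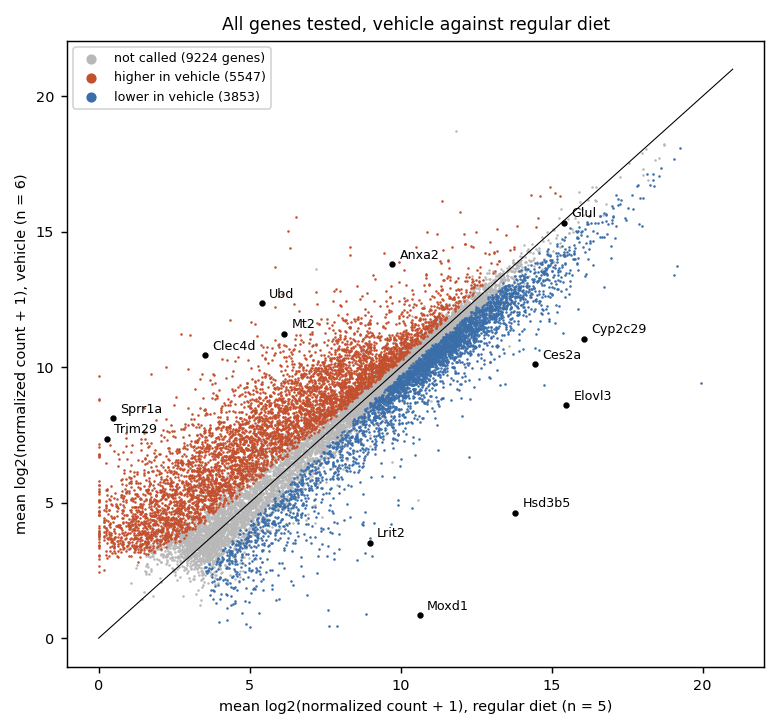
Mean log2(normalized count + 1) of every tested gene in regular diet (horizontal axis, n = 5) and vehicle (vertical axis, n = 6), with 5547 genes higher in vehicle in red, 3853 lower in blue and 9224 not called in grey. The line marks equal means, and genes described in the text are named; more genes lie far above the line than far below it, with 1190 called changes of at least 8-fold upward and 133 downward.

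Among genes without overlap whose higher mean reached 50, after the exclusions given under processing, the largest rises were those of Gpnmb, Mmp12 and Mmp7. Gpnmb, a transmembrane glycoprotein of macrophages and melanocytes, was at 88.4, 84, 57.8, 77.1 and 194 in regular diet and from 10545 to 109791 (median 66226) in vehicle (log2 fold change 9.01 ± 0.52, adjusted p = 9.15e-10). Mmp12, the macrophage elastase, was at 73.7, 90.6, 51.6, 57.8 and 133 and from 16604 to 62459 (median 36274; log2 fold change 8.73 ± 0.35, adjusted p = 2.31e-11). Mmp7, matrilysin, a protease of epithelial cells whose exons overlap an antisense gene, was at 9.83, 6.56, 8.75, 5.5 and 6.11 and from 652 to 6227 (median 2385; log2 fold change 8.14 ± 0.51, adjusted p = 1.83e-09). Of these, Mmp7 was below 10 in every regular diet liver, whereas Gpnmb and Mmp12 were measured at higher levels there. Ubd encodes the ubiquitin-like modifier FAT10 (chromosome 17, 37193892 to 37196095) and had normalized counts of 113, 57.7, 19.3, 17.9 and 53.5 in regular diet. Vehicle values ran from 4344 to 7202 (median 5164), so even the lowest vehicle mouse was far above the highest regular diet mouse (log2 fold change 6.96 ± 0.35, adjusted p = 2.23e-10). Sprr1a, a small proline-rich protein of stressed squamous epithelium, was at 0, 0, 0, 4.13 and 0 in regular diet and from 185 to 519 (median 253) in vehicle, and Trim29 at 0, 0, 0, 0 and 1.53 and from 78.3 to 358 (median 183). Both were at or near 0 in all regular diet livers, so their fold changes of 7.65 ± 0.47 and 7.09 ± 0.40 depend on the pseudocount of 1 (4.75 and 4.09 with a pseudocount of 10). Clec4d, a C-type lectin of myeloid cells (6.91 ± 0.33), and Ly6d, a surface protein of epithelial and lymphoid precursors (6.63 ± 0.33), were also among the 15 largest rises by that rule.

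By the same rule, the largest falls were those of Moxd1, Hsd3b5, Dct and Pitx3. Hsd3b5, a steroid-reducing member of the 3-beta-hydroxysteroid dehydrogenase family (chromosome 3, 98618634 to 98630252), stood at 37849, 10381, 14114, 9446 and 11100 in regular diet. Its vehicle values were 276, 48.4, 8.28, 5.54, 83.6 and 2.19 in replicates 1 to 6, all of them lower and spread over 2 orders of magnitude (log2 fold change -9.17 ± 0.99, adjusted p = 7.19e-07). The fold change was -9.87 without vehicle replicate 1 and -8.58 without replicate 6. Elovl3, an elongase of long saturated fatty acids, went from 61516, 45641, 40154, 45242 and 40361 to values from 171 to 655 (median 409; log2 fold change -6.89 ± 0.40, adjusted p = 8.66e-10). Moxd1, a copper-dependent monooxygenase-like protein, was at 3795, 1098, 460, 989 and 5397 in regular diet and at most 2.46 in vehicle (-9.79 ± 0.57). Dct, an enzyme of melanin synthesis, went from 1690, 253, 511, 187 and 504 to values from 0 to 4.48 (median 0.825; log2 fold change -7.97 ± 0.60, adjusted p = 1.21e-08). Pitx3, a homeobox transcription factor, went from 78.6, 399, 186, 380 and 325 to values from 0 to 1.55 (median 0.274; log2 fold change -7.44 ± 0.43, adjusted p = 9.15e-10). Both were at or near 0 in vehicle, and with a pseudocount of 10 their fold changes were -5.41 and -4.57. Pitx3 (chromosome 19, 46135685 to 46148326) lies on the opposite strand to Elovl3 (46131897 to 46135694), and their ends overlap. Strand is not stated, so reads at these ends cannot be told apart. Whether the falls of Pitx3 and Elovl3 are independent was not tested. Trhde, the enzyme that degrades thyrotropin-releasing hormone (-7.18 ± 0.42), Slc13a2, a dicarboxylate transporter (-6.02 ± 0.46), and Lrit2 (-5.46 ± 0.49) fell without overlap between the groups. The exons of Slc13a2 overlap an antisense gene.

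**Figure D2:**
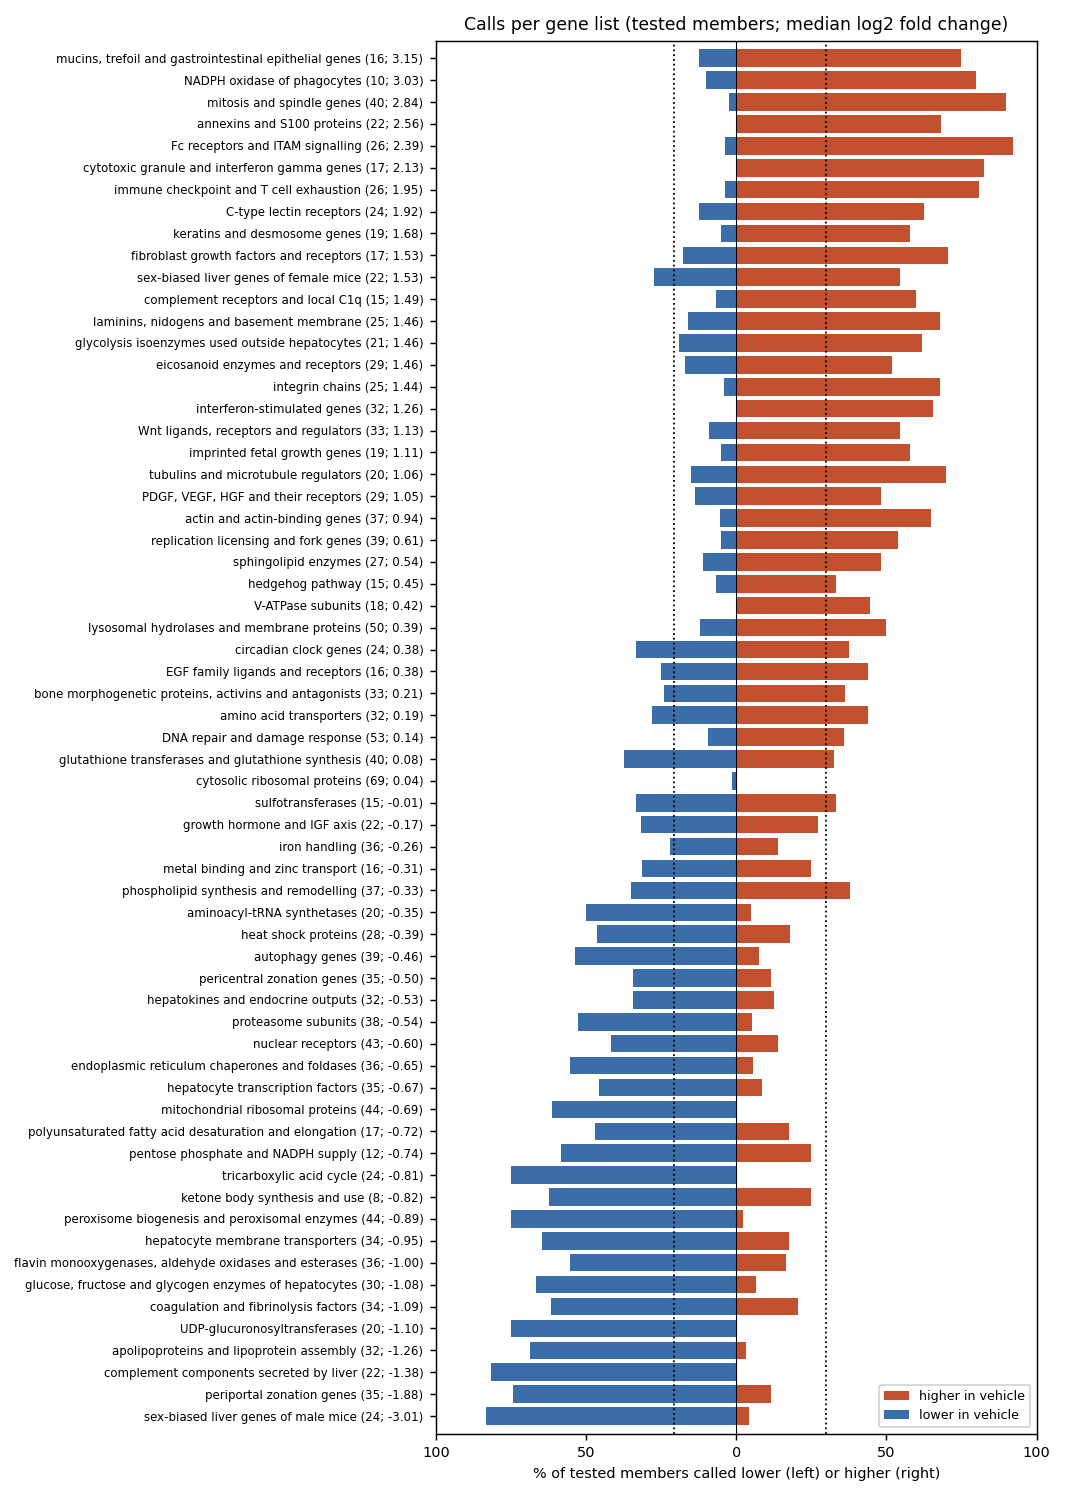
Share of tested members called lower (blue, left) or higher (red, right) in vehicle for each of 63 gene lists, with the number of tested members and the median log2 fold change in brackets. Dotted lines mark the shares over all tested genes, 20.7% lower and 29.8% higher; the sign of the median turned in 12 lists with equal library totals and in 7 with quantile normalization.

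With the deposited scaling, transcription factors that keep hepatocytes differentiated fell more often than they rose. Of 35 tested hepatocyte transcription factors, 16 fell, 3 rose and 16 did not pass, with a median log2 fold change of -0.67. With equal library totals 8 were higher and 8 lower (median -0.05), so the imbalance depended on the scaling. With quantile normalization 7 were higher and 13 lower (median -0.45). Srebf1, which drives fatty acid synthesis, was at 11180, 19926, 33664, 24562 and 15516 in regular diet and from 3043 to 6459 (median 3615) in vehicle. The groups were separate (log2 fold change -2.29 ± 0.27, adjusted p = 1.58e-06). Mlxipl, the carbohydrate-responsive factor ChREBP (-1.66 ± 0.24), and Nfil3, a repressor of the D-box clock genes (-2.47 ± 0.32), fell too. Hnf4a, a master regulator of hepatocyte genes, fell by 1.15, but not with quantile normalization (adjusted p = 0.172), and Cebpa (fell by 0.94) neither with quantile normalization (adjusted p = 0.168) nor with equal library totals (adjusted p = 0.137). Gata6, a factor of liver mesenchyme and endoderm, rose (1.12 ± 0.22). Marker sums of hepatocytes given above moved with this list, and their part in it was not tested.

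Nuclear receptors changed in both directions. Of 43 tested, 18 fell and 6 rose, and the median was -0.60, or 0.02 with equal library totals. Nr0b2, the bile acid-induced repressor SHP, was at 6006, 3192, 4346, 2626 and 3364 in regular diet and from 248 to 1100 (median 532) in vehicle (log2 fold change -2.67 ± 0.32, adjusted p = 2.19e-06). Nr1h3, the oxysterol receptor LXR-alpha (-1.09 ± 0.21), fell as well. Vdr, the vitamin D receptor, which hepatocytes hardly express, was at 0, 0, 0.875, 2.75 and 0 in regular diet and from 19.7 to 44.9 (median 30.4) in vehicle. Every vehicle value was higher (log2 fold change 4.38 ± 0.51, adjusted p = 1.68e-06). Nr4a3 (3.18 ± 0.40) and Pparg, the receptor that induces lipid storage genes (0.70 ± 0.19), rose. Nr1i3, the constitutive androstane receptor, had a fold change of -0.48 ± 0.32 and did not pass (adjusted p = 0.223).

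Genes of both lobular zones fell, in different shares. Of 35 tested periportal genes, 26 fell and 4 rose, with a median of -1.88. Of 35 tested pericentral genes, 12 fell, 4 rose and 19 did not pass, and their median was -0.50, which turned to 0.12 with equal library totals. Whether these shares differ was not tested. Among the periportal genes, Hal, the histidine-degrading enzyme, was at 34422, 36833, 35720, 45550 and 32509 in regular diet. Vehicle values ran from 1254 to 8404 (median 5334) and none reached the regular diet range (log2 fold change -3.14 ± 0.39, adjusted p = 3.87e-06). Sds, serine dehydratase (-2.87 ± 0.36), Etnppl, which breaks down phosphoethanolamine (-3.33 ± 0.39), and the amino acid transporter Slc38a4 (-1.88 ± 0.29) fell. Apoa4 was the exception among named periportal genes, at 11231, 3911, 3324, 3026 and 3657 in regular diet and from 17392 to 70823 (median 25297) in vehicle. It rose without overlap (log2 fold change 2.82 ± 0.40, adjusted p = 1.6e-05).

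Glul, glutamine synthetase and the classical marker of the last cells before the central vein (chromosome 1, 153899944 to 153909723), was at 47665, 38713, 53019, 30407 and 50311 in regular diet. In vehicle replicates 1 to 6 it was at 68382, 54573, 30362, 33793, 45872 and 28550. The ranges overlapped widely, and the fold change was -0.06 ± 0.28 (adjusted p = 0.877). With equal library totals it was 0.56 (adjusted p = 0.046) and with quantile normalization 0.89 (adjusted p = 0.00489), so that Glul passed as higher under those scalings. Cyp2e1, the pericentral alcohol- and DEN-oxidising cytochrome, was at 309037, 229163, 318552, 190218 and 331058 against 292400, 255221, 92097, 106707, 239637 and 105194 in vehicle replicates 1 to 6. Replicates 3, 4 and 6 were below all regular diet livers, whereas replicates 1, 2 and 5 lay within their range (-0.73 ± 0.37, adjusted p = 0.112). Without vehicle replicate 1 the value was -0.90 (adjusted p = 0.0461), and with only the vehicle libraries of higher code -0.95 (adjusted p = 0.0493), both past the threshold. Cyp2c29, another pericentral cytochrome, fell from 80559, 74083, 68092, 55635 and 68411 to values from 980 to 4733 (median 2062; log2 fold change -5.02 ± 0.32, adjusted p = 2.21e-09). Cyp2c genes are near-identical copies, so reads can be assigned to a wrong member. Oat, which makes glutamate from ornithine in pericentral cells, fell (-1.72 ± 0.33). Gstm3, a pericentral glutathione transferase, went the opposite way, from 5358, 3598, 2191, 3363 and 1804 to between 9248 and 27548 (median 16307; log2 fold change 2.41 ± 0.31, adjusted p = 5.86e-06).

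**Figure D3:**
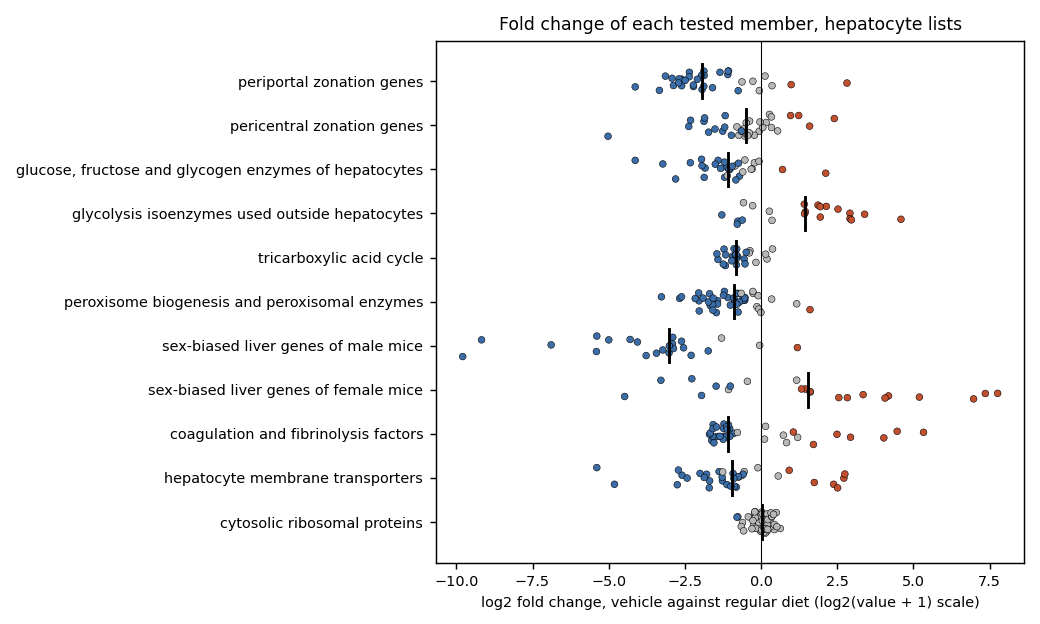
Log2 fold change (vehicle against regular diet, log2(value + 1) scale) of each tested member of 11 gene lists, 1 point per gene, with red for genes called higher, blue for lower and grey for not called, and a black bar at the list median. Male-biased genes reach below -9, periportal genes centre on -1.88, and ribosomal protein genes sit on both sides of 0 (their median, 0.04, turns sign with a scaling by the median of ratios).

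Genes of glucose handling split by isoenzyme. Of 30 tested enzymes of hepatocyte glucose, fructose and glycogen metabolism, 20 fell and 2 rose (median -1.08). Of 21 glycolytic isoenzymes and transporters typical of cells other than hepatocytes, 13 rose and 4 fell (median 1.46). G6pc, the last step of glucose release, was at 13379, 41137, 44400, 72338 and 77916 in regular diet and from 413 to 4627 (median 3172) in vehicle. Regular diet replicate 1 was lowest of its group and still above every vehicle mouse (log2 fold change -4.13 ± 0.53, adjusted p = 4.67e-06). The glycogen-targeting phosphatase subunits Ppp1r3b (-3.22 ± 0.31) and Ppp1r3c (-2.80 ± 0.34) and the glycogen phosphorylase Pygl (-1.95 ± 0.26) fell. Pklr, the hepatocyte pyruvate kinase, was at 5622, 8129, 9310, 5388 and 7487 and from 1529 to 4770 (median 4037; log2 fold change -1.05 ± 0.26, adjusted p = 0.00256), a call that ended under quantile normalization (adjusted p = 0.0554) and with equal library totals (adjusted p = 0.206). Pkm, the isoenzyme of most other and of proliferating cells, was at 1061, 1049, 542, 801 and 713 against 2066 to 10365 (median 7382), with each vehicle mouse above each regular diet mouse (log2 fold change 2.92 ± 0.32, adjusted p = 1e-06).

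Hk2, a hexokinase of muscle, immune and tumour cells, rose from 44.2, 117, 54.3, 81.2 and 127 to values from 250 to 791 (median 469; log2 fold change 2.53 ± 0.32, adjusted p = 4.09e-06). Eno2, the enolase of neurons and neuroendocrine cells (4.59 ± 0.53), and Pfkfb4, which sets the level of an activator of glycolysis (3.40 ± 0.27), rose too. The mitochondrial isoenzyme of gluconeogenesis, Pck2, a target of the amino acid response, rose from 364, 244, 169, 277 and 222 to between 678 and 1351 (median 1182; log2 fold change 2.12 ± 0.21, adjusted p = 2.39e-07). Of 12 tested genes of pentose phosphate and NADPH supply, 3 rose, 7 fell and 2 did not pass the test (median -0.74). Those that rose included G6pdx, the entry enzyme of the pentose phosphate pathway (2.01 ± 0.24), and Pgd of the same pathway (1.08 ± 0.19). Among the other NADPH sources of the list, Me1, which makes NADPH for lipid synthesis (-2.43 ± 0.23), and the folate enzyme Aldh1l1 (-2.60 ± 0.34) fell. Markers of lipid-associated macrophages rose in all 10 genes, with a summed level of 5856 to 17122 in regular diet and 107586 to 363493 in vehicle, and their part in the glycolytic rises was not tested.

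Mitochondrial and peroxisomal genes fell in large shares. In the tricarboxylic acid cycle 18 of 24 genes fell and 0 rose (median -0.81), with Sucla2, a succinate-CoA ligase subunit, at -1.21 ± 0.18 and Sdhd, a succinate dehydrogenase subunit, at -1.24 ± 0.18. Of 44 mitochondrial ribosomal proteins 27 fell and 0 rose (median -0.69; -0.06 with equal library totals), Mrps22 by 1.24. Of 44 peroxisomal genes 33 fell and only Abcd2 rose (median -0.89). Cat, catalase, the peroxisomal peroxide scavenger, was at 180096, 180364, 214213, 181159 and 202802 in regular diet and from 37928 to 99860 (median 57272) in vehicle, without overlap (log2 fold change -1.69 ± 0.26, adjusted p = 4e-05). Hacl1, which shortens branched fatty acids, fell most among the named peroxisomal genes (-3.27 ± 0.24). Abcd2, a transporter of very long-chain fatty acids, rose (1.61 ± 0.45).

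Oxct1, the enzyme that lets extrahepatic tissue burn ketone bodies and that hepatocytes lack, was at 204, 327, 166, 377 and 218 in regular diet and from 821 to 3089 (median 1966) in vehicle (log2 fold change 2.82 ± 0.33, adjusted p = 1.52e-06). Of the 8 tested ketone genes 5 fell and 2 rose, with a median of -0.82 that turned to 0.14 with quantile normalization. In the list of fatty acid desaturation and elongation 8 of 17 fell and 3 rose (median -0.72), and Elovl5, which elongates polyunsaturated fatty acids, fell by 1.55, while Elovl7 rose (4.49 ± 0.35). Phospholipid genes divided nearly evenly, with 14 higher and 13 lower of 37 and a median of -0.33 (0.30 with equal library totals, 0.06 with quantile normalization). Pcyt1b, a minor isoform of the rate-limiting enzyme of phosphatidylcholine synthesis (3.52 ± 0.32), and the lysophospholipid acyltransferase Lpcat2 (2.62 ± 0.24) rose, and Chpt1, which performs the last step of phosphatidylcholine synthesis, fell (-1.65 ± 0.21). Sphingolipid enzymes rose in 13 of 27 and fell in 3, led by Sphk1, the kinase that makes sphingosine 1-phosphate (4.90 ± 0.42), and Smpd3, a neutral sphingomyelinase (3.41 ± 0.25).

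Plasma proteins made by hepatocytes fell across families. Apolipoprotein and lipoprotein assembly genes fell in 22 of 32 (median -1.26), including Mttp, which loads fat onto apolipoprotein B (-1.39 ± 0.21). Angptl8, a feeding-induced inhibitor of lipoprotein lipase, fell (-2.86 ± 0.56; -2.23 without regular diet replicate 1). Of 22 complement components secreted by liver, 18 fell and 0 rose (median -1.38). Mbl2, a mannose-binding lectin that starts the lectin pathway, was at 42273, 21930, 17156, 23598 and 21091 in regular diet and from 939 to 10472 (median 2222) in vehicle, and no value overlapped (log2 fold change -3.14 ± 0.44, adjusted p = 1.34e-05). C9, the pore-forming component, fell too (-2.02 ± 0.44), whereas C3, the central component, had a fold change of -0.53 ± 0.29 and did not pass (adjusted p = 0.14).

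In the coagulation list, plasma factors fell and plasminogen activators rose. Of 34 tested genes 21 fell and 7 rose (median -1.09). Fgb, the fibrinogen beta chain, was at 496539, 286650, 228547, 283850 and 338672 in regular diet and from 46900 to 207361 (median 108746) in vehicle (log2 fold change -1.55 ± 0.35, adjusted p = 0.00136). The hepatocyte-made factors F7 (-1.62 ± 0.25) and F12 (-1.58 ± 0.29) and prekallikrein, Klkb1 (-1.57 ± 0.28), fell with it. Plat, tissue plasminogen activator, was at 27, 40.7, 21.9, 26.1 and 36.7 in regular diet and from 480 to 2205 (median 1443) in vehicle, with every vehicle mouse higher (log2 fold change 5.33 ± 0.38, adjusted p = 7.84e-09). Plau, the urokinase, rose likewise (4.03 ± 0.27). Of the 32 tested hepatokines, 11 fell and 4 rose, and their median of -0.53 was 0.09 with equal library totals and 0.05 with quantile normalization. Fgf21, a starvation and stress hormone, was at 128, 194, 54.3, 55 and 81 in regular diet and from 920 to 4328 (median 2167) in vehicle (log2 fold change 4.52 ± 0.44, adjusted p = 2.18e-07). Its co-receptor Klb fell (-1.83 ± 0.22), as did Fgf1 (-2.09 ± 0.31).

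UDP-glucuronosyltransferases, the list of oxidases and esterases, and hepatocyte transporters fell more often than they rose, with a few large rises. Sulfotransferases, given under other observations, rose and fell in equal numbers. UDP-glucuronosyltransferase genes fell in 15 of 20 and rose in 0 (median -1.10), Ugt2b38 the most of those named (-4.997 ± 0.68). Of 36 flavin monooxygenases, aldehyde oxidases and esterases, 20 fell and 6 rose (median -1.005). With quantile normalization 4 were higher and 12 lower, and the median was -0.14, beside -0.13 for all genes. Ces2a, an intestinal and hepatic carboxylesterase, was at 25745, 22243, 20804, 25438 and 18809 in regular diet and from 849 to 1635 (median 1124) in vehicle, again without overlap (log2 fold change -4.35 ± 0.18, adjusted p = 2.38e-11), and Fmo2, the lung-type flavin monooxygenase, rose (2.55 ± 0.43). Glutathione genes were mixed, with 13 higher and 15 lower of 40. Gsta3, a major hepatic transferase, fell (-1.95 ± 0.34), while the secreted peroxidase Gpx3 rose from 774, 239, 120, 212 and 225 to between 1155 and 15029 (median 7240; log2 fold change 4.30 ± 0.61, adjusted p = 1.5e-05). Members of the glutathione transferase, Ces and Ugt families are close copies, so single members are uncertain.

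Membrane transporters of hepatocytes fell in 22 of 34 and rose in 6 (median -0.95). Slc10a1, the bile salt uptake carrier NTCP, was at 54286, 24233, 31217, 20474 and 26879 in regular diet and from 1625 to 13105 (median 5387) in vehicle. The groups stayed apart (log2 fold change -2.59 ± 0.50, adjusted p = 0.000308). Abcb11, the canalicular bile salt pump (-2.001 ± 0.25), fell, and Slco1a1, a male-biased organic anion carrier, fell by 5.39 (by 4.71 without vehicle replicate 6). In contrast, Abcc4, which exports bile salts to blood, rose from 83.5, 262, 124, 201 and 139 to between 328 and 2769 (median 690; log2 fold change 2.52 ± 0.47, adjusted p = 0.000258), with Abcc1 (2.38 ± 0.20) and Abcc5 (2.75 ± 0.31). Of 32 amino acid transporters 14 rose and 9 fell (median 0.19). Slc7a11, the cystine importer, rose from 19.7, 38.1, 36.8, 24.8 and 50.4 to between 164 and 2153 (median 363; log2 fold change 3.64 ± 0.48, adjusted p = 6.15e-06) and Slc1a5, a glutamine carrier of dividing cells, rose by 2.47 ± 0.23, while the mitochondrial ornithine carrier Slc25a15 fell (-2.03 ± 0.30).

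Sex-biased genes of liver moved in opposite directions. In mice, pulses of growth hormone maintain male-type expression in liver. Of 24 tested male-biased genes, 20 fell and 1 rose, and the median of -3.01 was the lowest of the 63 lists examined. Of 22 tested female-biased genes (28 were listed), 12 rose and 6 fell (median 1.53). All mice were male. Hsd3b5, Moxd1 and Elovl3, described above, belong to the male-biased list. Cyp7b1, an oxysterol hydroxylase, was at 46503, 14731, 21045, 18000 and 22330 in regular diet and from 902 to 3922 (median 1260) in vehicle (log2 fold change -3.77 ± 0.40, adjusted p = 5.34e-07). Mup3, a urinary pheromone carrier of a family of near-identical copies, fell (-5.40 ± 0.78), while Mup20 had a fold change of -1.29 ± 0.58 and did not pass (adjusted p = 0.074); without vehicle replicate 1 it passed, at -1.68 (adjusted p = 0.0133), as it did with only the vehicle libraries of higher code (adjusted p = 0.00939).

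Among the female-biased genes, Sult1e1, the estrogen sulfotransferase (chromosome 5, 87575969 to 87591594), was at 2.46, 2.62, 6.13, 9.63 and 1.53 in regular diet and at 4363, 3294, 741, 720, 552 and 285 in vehicle replicates 1 to 6. All vehicle mice were higher, with replicates 1 and 2 highest (log2 fold change 7.77 ± 0.68, adjusted p = 6.75e-08). Cyp2a4, a testosterone hydroxylase, was at 19.7, 34.1, 8.75, 26.1 and 18.3 and at 486, 4434, 1796, 37902, 561 and 18370. Here replicates 4 and 6 were highest (log2 fold change 7.36 ± 0.89, adjusted p = 2.6e-06; 6.67 without vehicle replicate 4). Cyp2b9 rose (6.98 ± 0.62; 7.57 without regular diet replicate 3), while the female-biased Cyp2c69 (-4.47 ± 0.51) and Cyp2c40 (-3.29 ± 0.35) fell. In the growth hormone axis, Ghr, its receptor, was at 29184, 32779, 36348, 31924 and 35532 in regular diet and from 4069 to 20805 (median 8507) in vehicle without overlap (log2 fold change -2.04 ± 0.34, adjusted p = 9.43e-05). Igfals, which stabilises circulating IGF1, fell (-2.05 ± 0.38), and the prolactin receptor Prlr fell (-2.27 ± 0.37). Socs3, a feedback inhibitor of cytokine and growth hormone signals, rose (1.42 ± 0.25), as did Igf1r, the receptor that hepatocytes express little (2.04 ± 0.39). Of the 22 tested genes of the axis 6 rose (27.3%) and 7 fell (31.8%), beside 29.8% and 20.7% of all tested genes. The median of -0.17 was 0.46 with equal library totals.

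Metal-binding genes held large changes in both directions. Of 16 tested, 4 rose (25%) and 5 fell (31.25%), beside 29.8% and 20.7% of all tested genes. The median of -0.31 turned to 0.31 with equal library totals. Mt1 and Mt2 encode metallothioneins, small zinc- and copper-binding proteins induced by metals, glucocorticoids and inflammation. Mt2 was at 258, 59.1, 21, 45.4 and 113 in regular diet and from 1036 to 6107 (median 2250) in vehicle (log2 fold change 5.09 ± 0.57, adjusted p = 9.87e-07). Mt1 was at 644, 219, 88.4, 234 and 289 and from 1295 to 8981 (median 4061), and its groups did not overlap either (log2 fold change 3.99 ± 0.47, adjusted p = 1.86e-06). The neighbouring genes share a known control, the metal response element, here searched as TGCACNC or TGCGCNC on both strands of the 250 bases before each start. These letters occurred in 10 of the 14 list members with a promoter sequence (71.4%) and in 28.4% of the 12654 promoters of tested genes, 1 time before Mt1 and 3 times before Mt2. Only the first listed start of each gene was searched. Other starts, and bases outside the window, may hold more matches. The promoters are shown because both genes moved together. They are RefSeq sequences of build GRCm38.p6, on the strand of the gene, at chr8:94178839-94179088 for Mt1 and chr8:94172368-94172617 for Mt2, with the matches in capitals. A match is a string of letters and not a measured site.
Mt1: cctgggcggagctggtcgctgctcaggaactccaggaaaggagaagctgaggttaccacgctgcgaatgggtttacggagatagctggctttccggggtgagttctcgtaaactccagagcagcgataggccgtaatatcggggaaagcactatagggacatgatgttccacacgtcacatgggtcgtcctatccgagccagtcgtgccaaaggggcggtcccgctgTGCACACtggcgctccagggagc
Mt2: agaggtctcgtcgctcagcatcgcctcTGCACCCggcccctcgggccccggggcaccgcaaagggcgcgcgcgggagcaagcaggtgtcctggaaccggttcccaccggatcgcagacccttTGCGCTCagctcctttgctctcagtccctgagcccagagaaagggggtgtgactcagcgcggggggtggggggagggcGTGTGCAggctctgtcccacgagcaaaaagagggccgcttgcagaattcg

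Slc30a10, a manganese and zinc exporter of hepatocytes, was at 3565, 4489, 4386, 4273 and 4548 in regular diet and from 70.7 to 1046 (median 304) in vehicle (log2 fold change -3.85 ± 0.47, adjusted p = 2.57e-06). Sod1, the copper- and zinc-dependent superoxide dismutase, fell (-1.41 ± 0.26). Iron genes had 5 rises (13.9%) and 8 falls (22.2%) among 36 tested, beside 29.8% and 20.7% of all tested genes. Their median (-0.26) turned sign with equal library totals (0.36) and with quantile normalization (0.06). Lcn2, which binds bacterial iron carriers and is a marker of injured epithelium and neutrophils, was at 1307, 150, 109, 110 and 1355 in regular diet and from 14216 to 21699 (median 17418) in vehicle. Regular diet replicates 1 and 5 were higher than the rest of their group, and both were below every vehicle mouse (log2 fold change 5.82 ± 0.60, adjusted p = 4.31e-07). Tfr2, the hepatocyte iron sensor (-2.19 ± 0.21), and Tmprss6, which restrains hepcidin (-1.94 ± 0.22), fell. Hamp, hepcidin itself, was at 75874, 22937, 14442, 28534 and 18395 in regular diet and 53457, 36692, 9157, 4247, 8851 and 5773 in vehicle replicates 1 to 6. These ranges overlapped (-1.08 ± 0.64, adjusted p = 0.171). Hamp passed as lower without vehicle replicate 1 (-1.50, adjusted p = 0.0413) and with only the vehicle libraries of higher code (-2.14, adjusted p = 0.00676).

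Protein folding and degradation genes fell more often than they rose. Of 36 endoplasmic reticulum chaperones and foldases, 20 fell and 2 rose (median -0.65; -0.03 with equal library totals). Hyou1, a lumenal chaperone, was at 15929, 12162, 13414, 19141 and 10707 in regular diet and from 2879 to 6457 (median 4927) in vehicle (log2 fold change -1.68 ± 0.22, adjusted p = 6.96e-06). Hspa5, the chaperone BiP, fell by 0.87. The call ended with quantile normalization, which turned the direction (0.03, adjusted p = 0.906), with equal library totals (adjusted p = 0.286) and with only the vehicle libraries coded below the regular diet libraries (adjusted p = 0.0981). Ddit3, the stress-induced factor CHOP, rose (1.03 ± 0.29). Among 38 proteasome subunits 20 fell and 2 rose, and the median of -0.54 was 0.09 with equal library totals. The rises were the immunoproteasome subunits Psmb8 (1.00 ± 0.31) and Psmb9 (0.84 ± 0.26). Their calls ended when only the vehicle libraries with codes above those of regular diet were used (adjusted p = 0.0506 and 0.0679), and that of Psmb8 also with those below (adjusted p = 0.0658).

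Autophagy genes fell in 21 of 39 and rose in 3, with a median of -0.46 that was 0.16 with equal library totals. Atg9a (-1.21 ± 0.14) and Atg101 (-1.34 ± 0.21), which start the autophagosome, fell, and Mitf, a factor for lysosome genes, rose (1.22 ± 0.24). Of 69 cytosolic ribosomal protein genes 0 rose and 1 fell, and 68 did not pass. Their level in regular diet replicate 1 was 1.47 above the group mean on the log2 scale, against -0.45 to -0.30 in replicates 2 to 5, and without that library 30 of the 69 rose and the median fold change was 0.44 in place of 0.04. With equal library totals 42 rose and with quantile normalization 38, so the small number of calls depended on 1 library and on the scaling. Of 20 aminoacyl-tRNA synthetases 10 fell and Gars rose, with a median of -0.35 (0.27 with equal library totals). Tars, the threonine enzyme, fell most of those named (-2.09 ± 0.15), and the Gars call ended without regular diet replicate 2 or 5 (adjusted p = 0.0527 and 0.0597) and with only the vehicle libraries of higher code (adjusted p = 0.138).

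Genes of phagocytes rose in most of the functional classes examined. Of 26 Fc receptor and ITAM signalling genes, which turn bound antibody or lipid into uptake, 24 rose and 1 fell (median 2.39). Trem2, a lipid-sensing receptor, was at 310, 197, 187, 212 and 203 in regular diet and from 1762 to 10879 (median 6861) in vehicle, and the ranges were far apart (log2 fold change 4.68 ± 0.34, adjusted p = 9.72e-09). Syk, the kinase downstream of these receptors, rose (2.63 ± 0.26), as did Cd300lb (4.83 ± 0.37), while the neonatal Fc receptor Fcgrt fell (-0.99 ± 0.25), a call that ended under quantile normalization (adjusted p = 0.156) and with equal library totals (adjusted p = 0.223). Of 24 C-type lectins and related receptors 15 rose and 3 fell. Clec7a, the beta-glucan receptor dectin-1 (5.01 ± 0.28), and Lgals3, galectin-3 (6.13 ± 0.38), rose, and Clec4f, a receptor found on resident Kupffer cells, fell from 12420, 5887, 3004, 3882 and 6409 to between 1240 and 3381 (median 1616), with overlap (log2 fold change -1.67 ± 0.40, adjusted p = 0.00209).

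Genes of the oxidase that makes superoxide in phagosomes rose. Of 10 NADPH oxidase genes 8 rose and 1 fell (median 3.03). Cybb, its catalytic subunit, was at 536, 1001, 447, 740 and 1132 in regular diet and from 3086 to 9793 (median 5871) in vehicle (log2 fold change 2.95 ± 0.31, adjusted p = 5.21e-07), and the cytosolic subunits Ncf1 (2.24 ± 0.24) and Ncf4 (3.21 ± 0.36) rose with it. Nox4, an oxidase of hepatocytes and mesenchymal cells, fell by 0.91, but neither with equal library totals (adjusted p = 0.371) nor with only the vehicle libraries of lower code (adjusted p = 0.0995). Complement receptors and C1q rose in 9 of 15, Itgax, the beta-2 integrin alpha chain CD11c, by 6.40 ± 0.36 and C5ar1, the C5a receptor, by 5.24 ± 0.36. In the eicosanoid list 15 of 29 rose and 5 fell (median 1.46). Alox5ap, needed for leukotriene synthesis, was at 170, 90.6, 64.8, 48.2 and 99.3 in regular diet and from 554 to 1449 (median 1153) in vehicle (log2 fold change 3.57 ± 0.28, adjusted p = 1.64e-08), and Hpgds, a prostaglandin D synthase, rose (4.55 ± 0.42), while Ephx2, the hepatocyte epoxide hydrolase, fell (-1.75 ± 0.27).

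Lysosomal genes rose in part. Of 50 hydrolases and membrane proteins 25 rose, 6 fell and 19 did not pass (median 0.39), and of 18 subunits of the V-ATPase, the proton pump of the lysosome, 8 rose and 0 fell (median 0.42). Atp6v0d2, a pump subunit of osteoclasts and activated macrophages, was at 81.1, 94.5, 102, 106 and 64.2 in regular diet. Vehicle values were 2671, 2923, 9941, 9188, 3108 and 9027 in replicates 1 to 6, with replicates 3, 4 and 6 highest (log2 fold change 5.87 ± 0.34, adjusted p = 8.42e-10). Ctsk, the osteoclast and macrophage collagenase cathepsin K, was at 36.8, 48.6, 19.3, 46.8 and 41.2 and from 461 to 8442 (median 3276; log2 fold change 5.90 ± 0.59, adjusted p = 2.94e-07), and Cd63 rose by 5.58 ± 0.30. The broadly used subunits Atp6v1b2 (1.16 ± 0.18) and Atp6ap2 (0.97 ± 0.17) rose less. Gaa, the glycogen-degrading lysosomal enzyme, fell (-1.13 ± 0.25), but not with equal library totals (adjusted p = 0.144). The E-box CACGTG, whose longer forms are bound by lysosome-regulating factors, occurred in 11 of 40 lysosomal promoters of the same length (27.5%) and in 7.77% of all.

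Beside these lists, all 10 markers of lipid-associated macrophages rose (summed level above). Of 8 monocyte markers 7 rose and 1, Fn1, which hepatocytes also express, fell, and their summed level of 39084 to 105032 in regular diet and 35607 to 61737 in vehicle overlapped between the groups. Markers of Kupffer cells fell in 6 of 9 and rose in 0, with a summed level of 26599 to 55701 in regular diet and 11716 to 25452 in vehicle. Neutrophil markers rose in 7 of 8 tested genes (summed level 171 to 860 in regular diet and 1147 to 3995 in vehicle) and dendritic cell markers in 8 of 9 (summed level 582 to 920 in regular diet and 3579 to 12403 in vehicle). The dendritic cell sum includes Itgax, named above among the complement receptors, which alone was at 2251 to 9586 in vehicle. That sum is therefore not particular to dendritic cells. How far cell numbers set the levels of the lists was not tested.

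Lymphocyte genes rose from low levels. Of 26 tested genes of immune checkpoints and T cell exhaustion 21 rose and 1 fell (median 1.95), and of 17 genes of cytotoxic granules and interferon gamma 14 rose and 0 fell (median 2.13). Tnfrsf9, the costimulatory receptor 4-1BB, was at 2.46, 1.31, 0.875, 1.38 and 0 in regular diet and from 30.4 to 215 (median 68.8) in vehicle, with no overlap although all values were low (log2 fold change 5.16 ± 0.47, adjusted p = 1.16e-07). Pdcd1, which encodes PD-1, was at 14.7, 2.62, 0, 0 and 1.53 and from 8.18 to 57.9 (median 34.6; log2 fold change 3.39 ± 0.65, adjusted p = 0.000314; 4.02 without regular diet replicate 1). Havcr2, TIM-3, which myeloid cells express as well, rose (3.93 ± 0.38), as did Stat4, a factor of interferon gamma-producing cells (3.01 ± 0.32), and Ccl5 (3.33 ± 0.42). Gzma, a granzyme of killer cells, did not pass (0.86 ± 0.40, adjusted p = 0.086). It passed as higher without regular diet replicate 1 (adjusted p = 0.0317), without regular diet replicate 2 (adjusted p = 0.0398), without vehicle replicate 2 (adjusted p = 0.034), with only the vehicle libraries of higher code (adjusted p = 0.0224) and with equal library totals (adjusted p = 0.00914). Lag3 was at 1132, 119, 153, 142 and 165 in regular diet and from 67.8 to 143 (median 100.7) in vehicle, and it fell (-1.07 ± 0.43, adjusted p = 0.0477; -0.48, adjusted p = 0.0664, without regular diet replicate 1). That call ended under 13 of the 21 alternatives, with adjusted p up to 0.352. T cell markers rose in 9 of 10 (summed level 278 to 737 in regular diet and 851 to 2219 in vehicle) and NK cell markers in 5 of 6, and B cell markers in 1 of 7. Their part in these lists was not tested.

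Epithelial genes that adult hepatocytes use little rose. Of 19 tested keratin and desmosome genes 11 rose and 1 fell (median 1.68). Krt17, a keratin of stratified and injured epithelium, was at 2.46, 0, 1.75, 0 and 1.53 in regular diet and from 31.6 to 387 (median 163) in vehicle (log2 fold change 6.19 ± 0.60, adjusted p = 2.21e-07), and Krt7 of bile ducts rose (3.42 ± 0.45). Krt20, an intestinal keratin, was listed at 0 in every regular diet library, and no fold change is given for it. Of 16 mucin, trefoil and gastrointestinal epithelial genes that were tested (29 were listed) 12 rose and 2 fell (median 3.15). A member near 0 in regular diet was tested only if it reached 10 in 5 or more vehicle or antibody libraries. The filter thus favoured members that rose, and the share and median are limited by it. Epcam, an adhesion protein of ducts and progenitors, was at 56.5, 87.9, 58.6, 74.3 and 70.3 and from 639 to 3064 (median 2206; log2 fold change 4.71 ± 0.36, adjusted p = 1.67e-08). Ceacam1, an adhesion protein of hepatocytes that takes part in insulin clearance, fell (-1.79 ± 0.27). Cholangiocyte markers rose in 10 of 10 (summed level 7660 to 10125 in regular diet and 52486 to 108444 in vehicle), and tumour hepatocyte markers in 8 of 8 (summed level 783 to 1267 in regular diet and 7444 to 21357 in vehicle) in this tissue labelled non-tumorous. The latter sum includes Ly6d, at 4055 to 9160 in vehicle and one of the 15 largest rises above. Members were chosen with earlier results of these data known, so the 8 of 8 is no independent sign of tumour cells. The part of cholangiocytes or tumour hepatocytes in the epithelial rises was not tested.

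Cytoskeletal genes rose with them. Of 22 annexins and S100 proteins 15 rose and 0 fell (median 2.56), of 37 actin and actin-binding genes 24 rose and 2 fell (median 0.94), and of 20 tubulin and microtubule genes 14 rose and 3 fell (median 1.06). Anxa2, a calcium-dependent membrane binder and part of the plasminogen receptor, was at 1218, 870, 655, 826 and 758 in regular diet and from 12374 to 16845 (median 13713) in vehicle (log2 fold change 4.08 ± 0.17, adjusted p = 2.31e-11). Capg, an actin-capping protein of macrophages (5.11 ± 0.36), Vil1, villin of brush borders (4.32 ± 0.36), and Stmn1, a microtubule destabiliser of dividing cells (2.43 ± 0.21), rose. Isotypes of tubulin parted: Tubb2b rose from 17.2, 3.94, 6.13, 9.63 and 4.58 to between 46.8 and 378 (median 168; log2 fold change 4.22 ± 0.45, adjusted p = 5.94e-07), whereas Tuba4a, abundant in regular diet liver, fell (-1.98 ± 0.30). Tubulin genes are close copies, so reads can be misassigned among them.

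Integrin and basement membrane genes rose in most cases. Of 25 integrin chains 17 rose and 1 fell (median 1.44). Itgb6, the epithelial chain that activates latent TGF-beta, was at 17.2, 5.25, 10.5, 2.75 and 3.06 in regular diet and from 133 to 381 (median 260) in vehicle (log2 fold change 5.06 ± 0.43, adjusted p = 4.98e-08), and Itgam (4.88 ± 0.37) and Itgb2 (3.86 ± 0.31), chains of leukocytes, rose as well. Of 25 laminins, nidogens and other basement membrane genes 17 rose and 4 fell (median 1.46). Lama3, an epithelial laminin chain, went from 813, 466, 537, 604 and 515 in regular diet to between 107 and 234 (median 121) in vehicle and so fell without overlap (log2 fold change -2.04 ± 0.23, adjusted p = 1.26e-06). Lamb3, another epithelial chain, had a fold change of 0.37 ± 0.36 (adjusted p = 0.41), and passed as higher with only the vehicle libraries of higher code (1.01, adjusted p = 0.00319). Col18a1, the hepatocyte-derived collagen that gives endostatin, fell (-1.54 ± 0.24), and Nid1 rose (2.45 ± 0.25). Markers of myofibroblasts and portal fibroblasts rose in 11 of 12 (summed level 4070 to 6537 in regular diet and 24080 to 97282 in vehicle), and their part was not tested.

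Of 16 tested genes of EGF family ligands, receptors and regulators 7 rose, 4 fell and 5 did not pass the test (median 0.38). Areg, amphiregulin (chromosome 5, 91139599 to 91148432), was at 0, 2.62, 0, 1.38 and 1.53 in regular diet and from 81.2 to 330 (median 217) in vehicle, with 0 in regular diet replicates 1 and 3 (log2 fold change 6.68 ± 0.49, adjusted p = 9.85e-09). Nrg1, a ligand of the ERBB3 and ERBB4 receptors, was at 19.7, 28.9, 29.8, 28.9 and 18.3 and from 316 to 1202 (median 635; log2 fold change 4.66 ± 0.29, adjusted p = 1.82e-09), and Btc (2.22 ± 0.32) and Ereg (2.27 ± 0.33) rose too. Egfr, the receptor, which hepatocytes express strongly, was at 34024, 19990, 22808, 27710 and 33572 in regular diet and 16420, 10961, 3253, 4137, 10535 and 3417 in vehicle replicates 1 to 6. All 6 were lower, replicates 3, 4 and 6 the most (log2 fold change -2.02 ± 0.38, adjusted p = 0.000265). Its feedback inhibitor Errfi1 fell (-1.78 ± 0.37). The ligand Tgfa had a fold change of 0.37 ± 0.26 (adjusted p = 0.243), or 1.00 (adjusted p = 0.00707) with equal library totals.

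In the Wnt list 18 of 33 tested genes rose and 3 fell (median 1.13). Wnt10a was at 2.46, 0, 0.875, 1.38 and 1.53 in regular diet and from 21 to 168 (median 54.9) in vehicle (log2 fold change 4.74 ± 0.67, adjusted p = 1.38e-05), and the secreted regulator Dkk3 (3.52 ± 0.48) and Wnt11 (3.76 ± 0.53) rose. Wnt2, a ligand of central vein endothelium, fell by 1.34, but not with equal library totals (adjusted p = 0.201) or with only the vehicle libraries of higher code (adjusted p = 0.204). Of 15 hedgehog genes 5 rose (33.3%, beside 29.8% of all tested genes) and 1 fell, and their median of 0.45 turned to -0.32 with quantile normalization, where 4 were higher and 5 lower. Gli1, a transcription factor and target of the pathway, was at 4.91, 3.94, 3.5, 2.75 and 3.06 in regular diet and 8.18, 27.8, 96.7, 151, 20.9 and 96.4 in vehicle replicates 1 to 6. Each vehicle value was higher, with replicates 3, 4 and 6 highest (log2 fold change 3.30 ± 0.68, adjusted p = 0.00057). Boc, a hedgehog co-receptor, rose (4.45 ± 0.44), and Hhip, which binds and restrains hedgehog ligands, fell from 71.2, 155, 138, 95 and 96.2 to between 1.67 and 23 (median 3.02; log2 fold change -4.45 ± 0.85, adjusted p = 0.000308).

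Of 17 tested fibroblast growth factors and receptors 12 rose and 3 fell, with Fgfr1 at 1.62 ± 0.15. In the PDGF, VEGF and HGF list 14 of 29 rose and 4 fell, with Pdgfb at 3.22 ± 0.33 and Spint1, an inhibitor of the HGF activator, at 4.53 ± 0.30, while Mst1, the hepatocyte-derived macrophage-stimulating protein, fell (-1.28 ± 0.26). Of 33 bone morphogenetic protein genes 12 were higher (36.4%) and 8 lower (24.2%), near the 29.8% and 20.7% of all tested genes. The secreted regulators Smoc2 (3.65 ± 0.29) and Fstl1 (3.20 ± 0.28) rose, and Bmp1, the procollagen C-proteinase, fell (-1.13 ± 0.19).

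Cell division genes rose together and from low levels. Of 40 tested mitosis and spindle genes 36 rose and 1 fell, with a median of 2.84. In all 36 that rose, no vehicle value overlapped regular diet. Cdk1, the mitotic kinase, was at 71.2, 68.2, 36.8, 66.1 and 61.1 in regular diet and from 318 to 664 (median 465) in vehicle (log2 fold change 2.88 ± 0.21, adjusted p = 9.85e-09). Ccnb1, its cyclin, was at 9.83, 9.19, 4.38, 12.4 and 9.17 and from 114 to 291 (median 195; log2 fold change 4.22 ± 0.30, adjusted p = 7.91e-09), and Mki67, a marker of dividing cells, rose (3.66 ± 0.22). Spc24, a kinetochore subunit, fell (-1.26 ± 0.27). Replication genes rose less, in 21 of 39 (median 0.61), led by Uhrf1, which copies DNA methylation (3.04 ± 0.24), and Cdc6, a licensing factor (2.74 ± 0.26), while Tk1, thymidine kinase, fell (-1.64 ± 0.24). Of 53 DNA repair genes 19 rose (35.8%, beside 29.8% of all tested genes) and 5 fell, with a median of 0.14 beside 0.04 for all genes. With quantile normalization 10 were higher and 16 lower, and the median turned to -0.15. Exo1, a nuclease that trims DNA ends for homologous recombination, rose (2.62 ± 0.30).

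Promoters of mitosis genes are known to combine a CCAAT box with a cell cycle homology region. CCAAT, on either strand of the 250 bases before the start, occurred in 23 of the 32 list members with a promoter sequence (71.9%) and in 35.8% of the 12654 promoters of tested genes. TTTGAA, the core of the homology region, occurred in 10 of 32 (31.2%) and in 11.7% of all. The promoters of Cdk1 and Mki67 are shown as members with both strings (3 matches to CCAAT and 2 to TTTGAA in each). They are RefSeq sequences of build GRCm38.p6 on the strand of the gene, at chr10:69352913-69353162 and chr7:135716380-135716629, both on the minus strand, with matches in capitals.
Cdk1: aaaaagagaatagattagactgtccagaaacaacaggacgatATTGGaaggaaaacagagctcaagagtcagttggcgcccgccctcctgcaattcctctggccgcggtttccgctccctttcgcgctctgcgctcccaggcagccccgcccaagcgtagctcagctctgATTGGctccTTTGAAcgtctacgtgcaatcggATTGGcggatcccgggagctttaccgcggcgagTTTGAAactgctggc
Mki67: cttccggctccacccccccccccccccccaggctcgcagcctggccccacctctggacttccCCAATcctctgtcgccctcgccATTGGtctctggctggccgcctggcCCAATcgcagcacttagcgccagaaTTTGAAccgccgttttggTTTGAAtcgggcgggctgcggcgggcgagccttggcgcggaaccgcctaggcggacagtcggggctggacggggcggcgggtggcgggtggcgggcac

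Interferon-stimulated genes rose by smaller amounts and in a narrow range. Of 32 tested 21 rose and 0 fell (median 1.26). Oas1g, an RNA-sensing oligoadenylate synthetase, was at 46.7, 34.1, 31.5, 41.3 and 53.5 in regular diet and from 332 to 542 (median 374) in vehicle, and its groups lay apart (log2 fold change 3.29 ± 0.21, adjusted p = 1.83e-09). Isg15, the ubiquitin-like modifier, was at 1550, 479, 362, 406 and 509 and from 1118 to 2584 (median 1617; log2 fold change 1.51 ± 0.32, adjusted p = 0.000778), and Oasl2 (3.13 ± 0.23) and Oas2 (2.71 ± 0.21) rose. The string GAAA, any 2 bases and GAAA again, the core of the interferon response element, occurred in 10 of 21 list promoters (47.6%) and in 2.91% of the 12654. The promoters of Isg15 (3 matches) and Oas1g (2 matches) are shown because both genes carry the string and rose. They are RefSeq sequences of GRCm38.p6 on the minus strand, at chr4:156200819-156201068 and chr5:120887614-120887863. Capitals mark matches, on this strand or as the reverse complement.
Isg15: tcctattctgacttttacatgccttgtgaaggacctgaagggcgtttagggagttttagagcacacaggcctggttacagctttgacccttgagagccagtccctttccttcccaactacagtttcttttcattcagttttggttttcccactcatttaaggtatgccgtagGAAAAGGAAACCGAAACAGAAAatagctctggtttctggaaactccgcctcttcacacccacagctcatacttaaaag
Oas1g: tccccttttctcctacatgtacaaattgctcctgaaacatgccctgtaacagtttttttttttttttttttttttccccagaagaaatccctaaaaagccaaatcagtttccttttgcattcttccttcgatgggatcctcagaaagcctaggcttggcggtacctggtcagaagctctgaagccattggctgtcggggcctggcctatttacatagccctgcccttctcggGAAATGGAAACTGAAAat

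Clock genes changed in both directions, 9 higher (37.5%) and 8 lower (33.3%) of 24, beside 29.8% and 20.7% of all tested genes. Bhlhe41, a repressor of the clock, was at 24.6, 36.7, 110, 19.3 and 62.6 in regular diet and from 484 to 1301 (median 816) in vehicle (log2 fold change 4.25 ± 0.37, adjusted p = 6.51e-08). Cry1, a core repressor that peaks late in the cycle, went from 536, 1033, 894, 1433 and 863 to between 212 and 326 (median 268; log2 fold change -1.78 ± 0.21, adjusted p = 1.68e-06). Dbp, an output factor of the clock with one of its largest daily swings, was at 128, 353, 931, 156 and 280 in regular diet and at 1437, 3515, 612, 3550, 3664 and 3619 in vehicle replicates 1 to 6. Vehicle replicate 3 lay within the regular diet range (log2 fold change 3.01 ± 0.51, adjusted p = 8.7e-05), as it did for Ciart (3.24 ± 0.58). Nfil3, which represses the genes that DBP activates, fell, as given above. The exons of Dbp overlap those of Sphk2, and reads of the pair cannot be told apart without strand. The time of day of tissue collection is not in the labels, so collection time and group cannot be told apart for these genes. CACGTG, the E-box of the clock, occurred in 5 of 20 promoters of the list (25%), against 7.77% of all.

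Imprinted genes of fetal growth rose in 11 of 19 tested and fell in 1 (median 1.11), and 2 groups of them ordered the vehicle mice differently. H19, a noncoding RNA of fetal liver (chromosome 7, 142575529 to 142578143), was at 14.7, 18.4, 12.3, 16.5 and 18.3 in regular diet and at 174, 252, 4804, 7073, 533 and 4701 in vehicle replicates 1 to 6. Replicates 3, 4 and 6 were highest (log2 fold change 6.21 ± 1.03, adjusted p = 7.74e-05). Cdkn1c, an imprinted cell cycle inhibitor of the same chromosome, was at 46.7, 49.9, 36.8, 44 and 48.9 and 144, 239, 1095, 1618, 225 and 1515, with the same replicates highest (log2 fold change 3.52 ± 0.54, adjusted p = 3.42e-05). Rian, a noncoding RNA of the imprinted domain on chromosome 12 (chromosome 12, 109603940 to 109661716), was at 34.4, 30.2, 119, 61.9 and 50.4 in regular diet and 8305, 2178, 1487, 515, 4686 and 335 in vehicle. Replicates 1 and 5 were highest, and replicates 4 and 6 lowest (log2 fold change 4.97 ± 0.64, adjusted p = 4.9e-06). Its neighbours Meg3, at 6072, 2343, 1870, 540, 5135 and 393, and Mirg, at 480, 229, 106, 44.3, 369 and 21.4 in replicates 1 to 6, had the same order of vehicle mice.

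**Figure D4:**
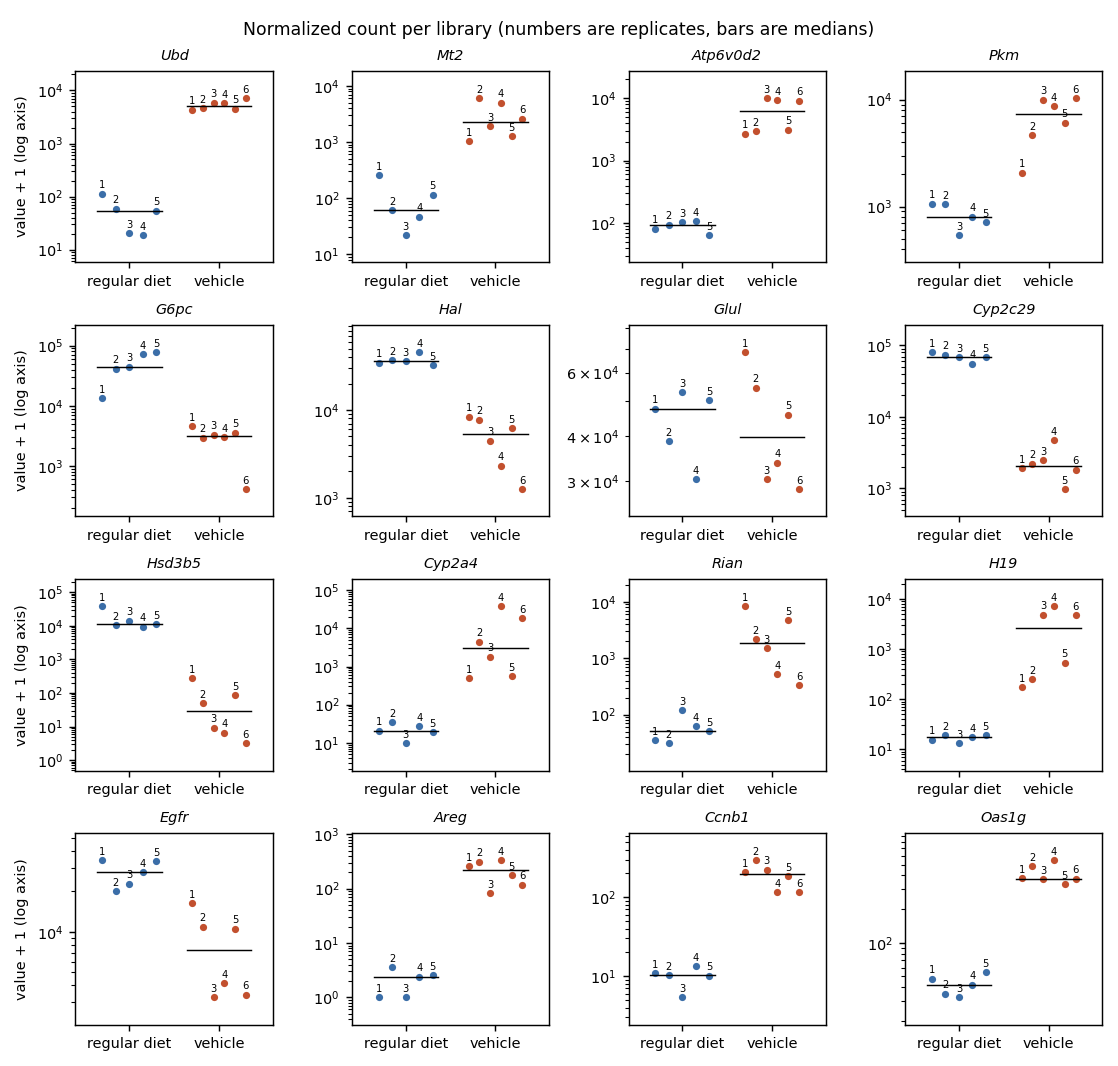
Normalized count + 1 (log axis) of 16 genes in each library, with replicate numbers beside the points (blue regular diet, red vehicle) and bars at the group medians. Glul overlaps between the groups, Rian is highest in vehicle replicates 1 and 5, and H19 in replicates 3, 4 and 6.

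The 6 vehicle livers differed in how far they stood from regular diet. The first principal component of the 11 libraries, which held 62.7% of the variance, ran from -129 to -96.6 in regular diet and was 33.5, 59.3, 131, 133, 73.0 and 137 in vehicle replicates 1 to 6. Replicates 3, 4 and 6 were thus the 3 farthest libraries. The gap between the groups was 48.9% of the whole range of that component. The same replicates had the lowest deposited totals and the greatest depth of the vehicle group. Totals were 42.1, 41.15, 30.78, 31.3, 37.32 and 29.65 M in vehicle replicates 1 to 6. Estimated depth was 36.02, 45.95, 59.5, 50.83, 44.64 and 54.12 M fragments. The part of depth and scaling in the order of the vehicle mice was not tested. In the mean log2 level of a list, vehicle lay above all regular diet libraries in 27 of the 63 lists and below them in 16, and overlapped in 20. Replicates 3, 4 and 6 were the 3 farthest from regular diet in 42 of 63 lists, and replicate 1 the nearest in 39. For the male-biased list, levels relative to regular diet were -1.89, -2.67, -3.94, -4.02, -2.44 and -4.57 in replicates 1 to 6, and for integrin chains 1.03, 1.52, 2.52, 2.41, 1.92 and 2.68. Since many genes of different lists come from the same libraries, these orders are not independent of each other.

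In the remaining lists replicates 3, 4 and 6 were not the 3 farthest, as in the next examples. Mitosis genes were at 2.61, 2.92, 2.70, 2.22, 2.66 and 2.30 in replicates 1 to 6, with replicates 4 and 6 lowest. Interferon-stimulated genes were at 1.40, 1.42, 1.05, 1.42, 1.39 and 1.20, with replicates 3 and 6 lowest, and EGF family genes at 1.21, 1.10, 0.75, 0.75, 1.06 and 0.65, with replicates 1, 2 and 5 highest. DNA repair genes ran only from 0.33 to 0.49 in vehicle. Pericentral genes did have replicates 3, 4 and 6 farthest, at 0.06, -0.07, -0.90, -0.81, -0.44 and -1.22 in replicates 1 to 6. Replicates 1 and 2 lay within the regular diet range of -0.28 to 0.25 and replicates 3, 4, 5 and 6 below it. The vehicle libraries differed by gene length less than regular diet replicate 1 did, with medians from 0.13 to -0.21 over the length groups in replicate 2 and from -0.04 to 0.18 in replicate 6, relative to the other vehicle libraries. Its part in these orders was not tested.

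**Figure D5:**
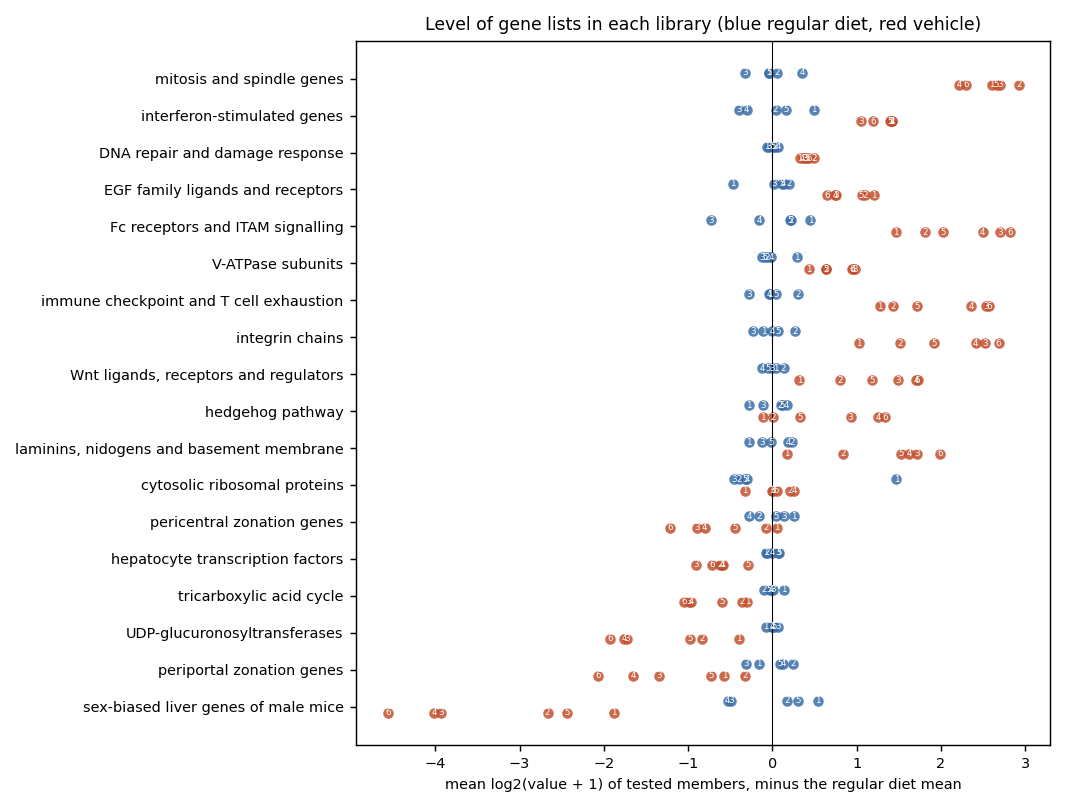
Mean log2(value + 1) of the tested members of 18 gene lists in each library, minus the mean of the 5 regular diet libraries (horizontal axis), with regular diet in blue and vehicle in red and replicate numbers in the points. Vehicle replicates 3, 4 and 6 lie farthest from 0 in most lists, but not for mitosis, interferon-stimulated or EGF family genes, and regular diet replicate 1 lies far to the right for ribosomal proteins.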

How the data were processed

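RNA sequencing of total RNA from 17 mouse livers, 1 library per mouse, was used as gene-level values that the authors deposited. The deposited signal is a normalized count per gene, for which the submitters' processing notes name Cufflinks 2.2.1 and mm10. The aligner, annotation release, strand and scaling option are not given in the sources used here. Values were not whole counts. After division by the step between low values, 97.7 to 98.3% of values below 20 steps lay within 0.05 of a whole number, and the depth in fragments was estimated from that step. The reads of all genes were not recovered, so no count model was fitted.

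Of 52545 genes, the 18624 with a value of at least 10 in at least 5 of the 17 libraries were tested as log2(value + 1) with limma-trend (limma 3.58.1, R 4.3.3) on all 17 libraries with the group as the only term, two-sided, Benjamini-Hochberg adjusted over all genes. The steps were tested on simulated data. A value below 0.1 beside a value of at least 100 in the same group was treated as a possible failed estimate, and such genes, 18 of them called, stay in the counts but are given no fold change in the text. Named genes were a panel, the 15 largest changes in each direction among called genes with no overlap between groups and a higher group mean of 50 or more, and from each list up to 4 called members of smallest p in the direction with more calls, up to 2 in the other, and the uncalled members where these numbered 5 or fewer. The members and lists were chosen with earlier results of these data known. Gene positions are from GENCODE M21 (GRCm38), and promoters from RefSeq, with only the first start listed for each gene. Other scalings, pseudocounts, filters, library sets, a replicate block and leaving out each library were run as alternatives.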

Additional observations from a re-analysis of the deposited data

Results flagged for a closer look

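Values of a single library were compared with the other libraries of its group by a gap test (Dixon), over the gene list levels, the principal components, the totals and the genes named above. Chance flags about 1 in 20 groups of values. Of 558 groups of values looked at, 61 were flagged, and in 43 of them the library was regular diet replicate 1. The cause was not tested.

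Regular diet replicate 1 had the highest deposited total of its group (74.6 M) and stood at 143 on the second principal component. Relative to the regular diet mean, on the log2 scale, its list levels were far above those of the other regular diet mice for V-ATPase subunits (0.287), eicosanoid enzymes and receptors (0.493), mitochondrial ribosomal proteins (0.977), hepatokines and endocrine outputs (0.597), glutathione transferases and glutathione synthesis (0.804), proteasome subunits (0.807), cytosolic ribosomal proteins (1.47), aminoacyl-tRNA synthetases (0.455) and annexins and S100 proteins (0.769). They were far below for nuclear receptors (-0.576), EGF family ligands and receptors (-0.467) and circadian clock genes (-0.768).

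In normalized counts, this library was far above the rest of its group for Hsd3b5 (37849), Nr1h3 (11828), Apoa4 (11231), Sdhd (21198), Mrps22 (2341), Hacl1 (31334), F7 (10937), F12 (62383), Gsta3 (232853) and Mup3 (1390980). The same held for Mup20 (1130030), Igfals (18523), Sod1 (64729), Tmprss6 (46088), Gars (4203), Trem2 (310), Fcgrt (20626), Lag3 (1132), Mst1 (15798) and Isg15 (1550). It was far below for Slc38a4 (57988), Ppp1r3c (4626), Klb (1000), Abcb11 (32690), Prlr (4604), Slc30a10 (3565), Atp6ap2 (1105), Ceacam1 (4063) and Tgfa (481).

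Regular diet replicate 2 stood below the rest of its group for Atg9a (3519). Regular diet replicate 3 stood below the rest of its group for Pfkfb4 (41.1), Syk (212), Itgax (21.9) and Cdk1 (36.8) and apart in the list level of NADPH oxidase of phagocytes (-0.432 on the log2 scale) and apolipoproteins and lipoprotein assembly (-0.527 on the log2 scale). Regular diet replicate 4 stood above the rest of its group for Sprr1a (4.13). Regular diet replicate 5 stood above the rest of its group for Trim29 (1.53). Vehicle replicate 1 stood above the rest of its group for Ppp1r3b (3021), below the rest of its group for Pck2 (678), Gaa (1229) and Uhrf1 (115) and apart in the list level of phospholipid synthesis and remodelling (0.065 on the log2 scale). Vehicle replicate 2 stood above the rest of its group for Stmn1 (1642) and Tk1 (925). Vehicle replicate 6 stood above the rest of its group for Hhip (23) and below the rest of its group for G6pc (413).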

How the results depend on the processing

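With equal library totals in place of the deposited scaling, 9369 genes were higher and 1264 lower. Under the other scalings, pseudocount, filters and library sets the counts stayed within 1.5 times: from 4278 to 6371 higher and from 2671 to 5223 lower. Leaving out each library in turn gave 5145 to 5951 higher and 3337 to 4729 lower genes, with both highest counts without regular diet replicate 1. The gap between the groups on the first principal component was 36.6 to 49.5% of its range under 6 alternatives chosen after seeing the data.

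Of the 204 genes named with a call, 192 kept it under each of the 21 alternatives that tested them, and the 12 that did not are given with their values above. Hspa5 turned to 0.0319 with quantile normalization. Among genes without a call, the direction turned for Nr1i3 with equal library totals (0.14), for C3 with equal totals (0.10) and with quantile normalization (0.47), for Cyp2e1 with quantile normalization (0.38), and for Lamb3 with quantile normalization (-0.11) and with only the vehicle libraries of lower code (-0.26). Glul turned to 0.56 with equal totals, 0.89 with quantile normalization, 0.17 with only the vehicle libraries of lower code and 0.0825 with the replicate block, and it ran from -0.206 to 0.0462 on leaving out each library in turn. The cause was not tested.

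Replicate numbers name mice and do not pair them: deviations of same-numbered libraries correlated at 0.00218, -0.344, -0.0347, -0.000983 and 0.0218. With the replicate block, 5393 genes were higher and 3795 lower. Genes near 0 in regular diet are limited by depth, and their fold changes depend on the pseudocount.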

Other observations

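Values of some gene groups are given only here. Of 28 tested heat shock and cytosolic chaperone genes, 13 fell and 5 rose, and their median of -0.39 was 0.24 with equal library totals. Sulfotransferases rose in 5 and fell in 5 of 15 genes, with a median of -0.01 that was 0.62 with equal library totals and 0.05 with quantile normalization.

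Markers of other liver cells changed in both directions. Of 10 tested markers of sinusoidal endothelium, 5 fell and 1 rose (summed level 15781 to 22085 in regular diet and 5887 to 25234 in vehicle), and 2 of 8 markers of vascular endothelium rose. Of 12 hepatic stellate cell markers 4 rose (Des, Rgs5, Pdgfrb and Nes) and 1 fell (Ecm1), and their summed level of 11744 to 22103 in regular diet and 8038 to 32348 in vehicle overlapped between the groups. Erythroid markers fell in 3 of 5 and rose in 0. Intestinal epithelium markers rose in 3 of 4 tested genes (7 were listed). Their summed level of 4851 to 11428 in regular diet and 4506 to 11827 in vehicle overlapped between the groups. Mesothelium markers rose in 2 of 6. Of all tested genes 29.8% rose and 20.7% fell. The shares that rose for vascular endothelium, stellate cells and mesothelium were near that of all genes, so they show no change particular to these markers.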
